A study of Xenopus tropicalis with 2 samples.

Results

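The genes foxa1 (Xetrov90021679m.g), foxa2 (Xetrov90013306m.g) and vasn (Xetrov90023278m.g) were followed through the single cells of the Xenopus tropicalis tadpole tail. They were chosen by name and are 3 of the 14374 genes in the files, where 12993 identifiers carry a name. The tadpoles were heterozygous for the transgenes pax6:GFP, cryga:RFP and actc1:RFP. A pax6 promoter drives GFP in neural progenitors of this line, and the cells that went into droplets were those a sorter called positive for GFP, with gates set on wild-type tails. In the uninjured group, tail tips were taken from intact tadpoles at NF stage 41, 3 days after fertilization. In the 24hpa group, the posterior part of the tail was amputated at that stage and the regenerated tip was collected 24 h later, from tadpoles a day older. Each group was 1 library made from many pooled tails, so amputation, age, the piece of tail taken and the library cannot be told apart.

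Foxa1 and Foxa2 are forkhead transcription factors. In vertebrate embryos, the notochord secretes the ligand Shh, which turns on Foxa2 in the cells above it, and these become the floor plate, a strip of ventral midline cells that makes Shh itself and patterns the spinal cord. Foxa genes are also known from endoderm, and foxa1 marks the small secretory cells of the Xenopus embryonic skin. Vasorin, the product of vasn, is a membrane protein that in mammals can be shed and binds TGF-beta.

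The uninjured library held 2617 cells with a median of 8289 unique molecular identifiers (UMIs, tags that count 1 captured transcript once), and the 24hpa library 1090 cells with a median of 10374.5. The neural cells numbered 780 and 295, in 8 clusters named by the authors, and the other cells fell into 13 further clusters. The sort was not purely neural, since muscle, notochord and skin cells made up many of these clusters. A level is given as CPM, the UMIs of a gene summed over the cells of a cluster, divided by all UMIs of those cells and scaled to the usual fixed total. Every interval is a 95% interval that covers counting error only. With 1 library per group and clusters built from the same genes, all contrasts are descriptions without a test. A gene is called higher or lower where its CPM differed more than 2-fold and the intervals did not overlap.

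The cluster named Floor Plate held 23 uninjured cells and 1 cell at 24hpa. In the coarser grouping of all cells, each of them carried the name Spinal Cord Progenitor. Markers of a floor plate were present: shh was found in 13 of the 23 uninjured cells and sox2, a neural progenitor factor, in 22. Pax6 had no UMI in any of the 23, which allows up to 13.0% of cells with a UMI (3 cells of the total, the limit given at each count of 0), although the sort was for a pax6 reporter. In the 273 uninjured cells of the Spinal Cord Progenitor cluster, 187 pax6 UMIs were counted.

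In the uninjured floor plate, foxa2 was counted in nearly every cell. It had 71 UMIs, a level of 312 CPM (244 to 393), and was found in 21 of 23 cells, or 91.3% (72.0 to 98.9%). UMIs per cell ran from 0 to 12 with a median of 2, and 5 cells held 5 or more. The 2 cells without foxa2 each had 2 UMIs of shh, so neither lacked both genes.

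Vasn was spread over almost as many floor plate cells. Its 58 UMIs gave 255 CPM (193 to 329), and 20 of 23 cells, or 87.0% (66.4 to 97.2%), had at least 1. The lowest, median and highest counts per cell were 0, 1 and 10. The authors named vasn, with bicc, as a candidate floor plate marker from these same cells, so its level here is not independent evidence for that role.

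Foxa1 was missing from more of the floor plate cells. It had 48 UMIs, 211 CPM (155 to 280), and was found in 16 of 23 cells, or 69.6% (47.1 to 86.8%), with counts per cell from 0 to 9 and a median of 2. Shh, counted the same way, had 17 UMIs in 13 cells and no more than 2 in any cell. All 10 floor plate cells without a shh UMI held at least 1 UMI of foxa2.

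Depth moved with these counts. The floor plate cells ranged from 2816 to 28105 UMIs with a median of 8078, and the cells with the most foxa2 and the most vasn were among the deepest. With each cell thinned to 2600 UMIs, the expected shares of positive cells were 40.0% for foxa1, 57.4% for foxa2 and 50.7% for vasn. The single 24hpa cell, with 31256 UMIs, was deeper than any uninjured one and held 1 UMI of foxa1, 6 of foxa2, 8 of vasn and 1 of shh. By the authors' calls, 11 of the 23 uninjured cells were in S phase, 10 in G2M and 2 in G1, against 178, 75 and 20 of the 273 progenitors.

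**Figure D1:**
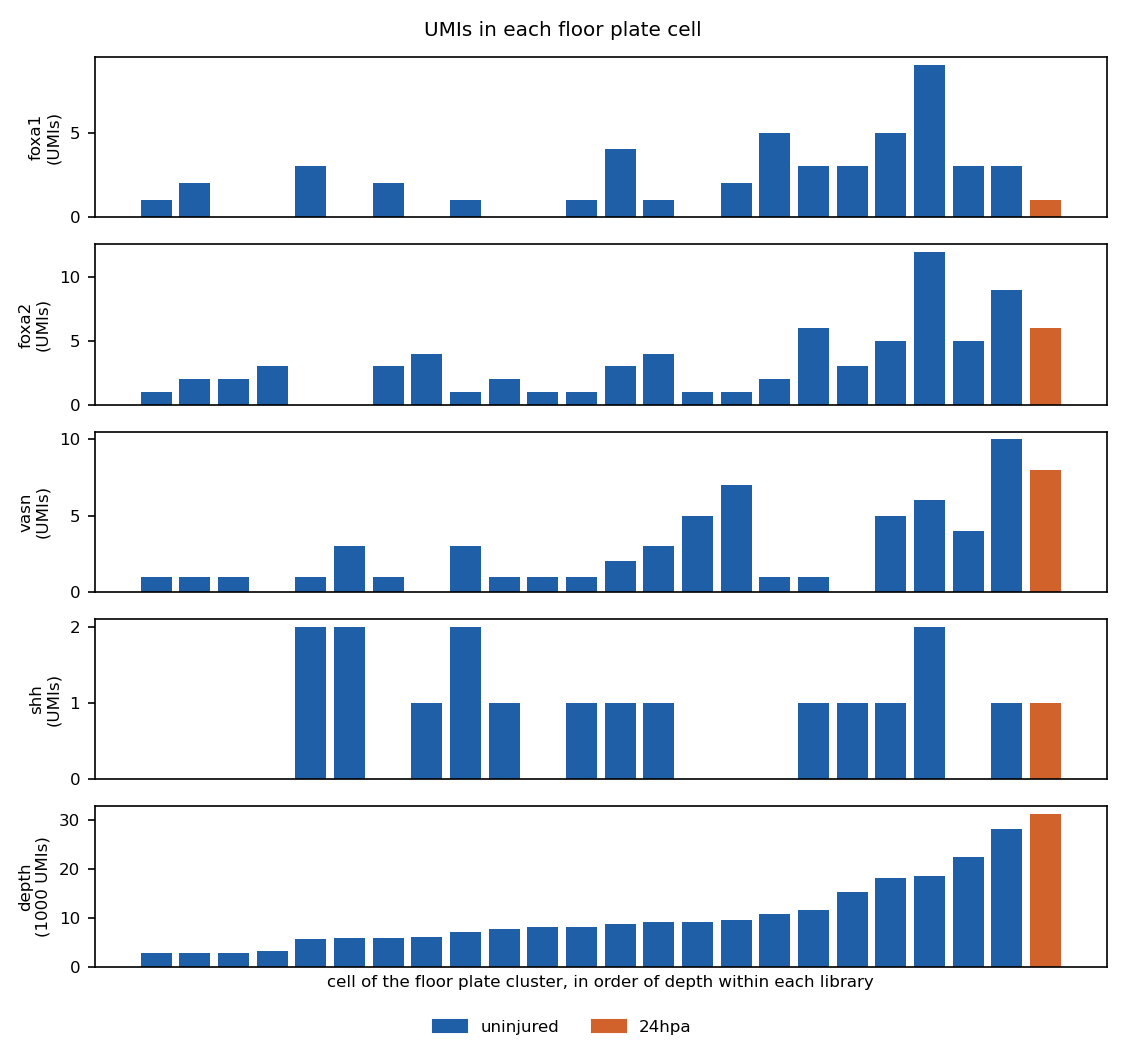
UMIs of foxa1, foxa2, vasn and shh, and the depth in units of 1000 UMIs, in each cell of the floor plate cluster (1 bar position per cell, ordered by depth within a library; blue, 23 uninjured cells; orange, the 24hpa cell). Foxa2 is at 0 in 2 uninjured cells, vasn in 3 and foxa1 in 7, and the tallest bars of foxa2 (12 UMIs) and vasn (10 UMIs) stand among the deepest cells.

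The first comparison set the floor plate against the progenitors it was split from, within the uninjured library. All 3 genes were higher in the floor plate. Foxa1 stood at 211 against 14.2 CPM, a log2 ratio of 3.89 (3.23 to 4.57), or 14.8-fold. Foxa2 stood at 312 against 22.2 CPM, a log2 ratio of 3.81 (3.28 to 4.36), or 14.1-fold. Vasn had the widest gap of the members, 255 against 7.95 CPM, with a log2 ratio of 5.002 (4.23 to 5.83), or 32.1-fold. Over all 6958 genes with at least 20 UMIs in these cells, 5.49% were called higher and 2.4% lower. Among the 1608 genes with at least 20 floor plate UMIs, vasn ranked 10, foxa1 21 and foxa2 25 by this ratio.

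The genes above vasn in that ranking mixed regulators with secreted proteins. Ferd3l, a bHLH factor of the mouse floor plate, led with 39 against 2 UMIs and a log2 ratio of 7.68. It was followed by serpinf2 (7.33), an inhibitor of plasmin, LOC101733581 (7.03) and col8a1 (6.93), a collagen chain. Tdgf1.2, of the Cripto family of Nodal co-receptors, had 28 UMIs against 0, a log2 ratio of at least 6.61 with 3 UMIs set in place of 0. Below these came ctgf (6.04), a secreted matrix protein, atp6v0d2 (5.71), a proton pump subunit, the homeobox gene arx (5.54) and cfd (5.23), a complement protease.

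Of 10 genes of a floor plate list with enough UMIs, 7 were higher and 1 lower, with a median log2 ratio of 2.80 against 0.01 over all genes. The list was chosen with earlier results of these data known, and the authors named its gene bicc from these same cells. Its calls are therefore not independent evidence for the name of the cluster. Shh stood at 17 against 3 UMIs and a log2 ratio of 5.89 (4.11 to 8.31). The axon guidance gene slit1 (3.26), the heparan sulfatase sulf1 (2.86), the matrix gene spon1 (2.74) and bicc1 (2.26), an RNA-binding protein, were higher as well. Nkx6-1, which is made in ventral progenitors, was lower (−1.67), and the ciliogenesis factor foxj1, at −0.33 (−1.19 to 0.43), was not called. Foxa4, a further forkhead gene known from the Xenopus floor plate and notochord, had only 2 UMIs in either cluster, and foxa3 had no match.

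Most genes that mark other parts of the neural tube went the other way. Of 7 dorsoventral domain genes, 5 were lower in the floor plate and none higher, with a median of −1.67. Nkx6-1, which stood at that median, is also the lower gene of the floor plate list. Nkx6-2, at 0.57 (0.05 to 1.05), and nkx2-2, at 0.28 (−2.09 to 1.98), were not called. Irx3 stood at −3.85 with 1 UMI (−9.16 to −1.35), and pax6, dbx1 and msx1 had no floor plate UMI, for log2 ratios of at most −2.57, −1.25 and −1.89. Of 6 progenitor genes, a list that also holds pax6, 4 were lower, with a median of −2.37. Among them were sox3 (−2.18) and the glial genes fabp7 (−3.69) and slc1a3 (−4.64), whereas sox2 (−0.07) and msi1 (−0.32) were not called.

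The pathways nearest to these genes showed few calls. Of 6 hedgehog pathway genes, shh was higher and gas1, a co-receptor of Shh, was lower (−2.38). None of 4 TGF-beta pathway genes was called, and tgfb2 stood at 1.61 (0.35 to 2.71). Among 4 neuron genes, elavl4 was higher (1.38). Of 3 genes of neurons that contact the cerebrospinal fluid, the channel gene pkd1l2 (2.08) and the transporter gene slc32a1 (2.25) were higher. The remaining gene, gata2, had 1 floor plate UMI and was not called, at −1.56 (−6.91 to 1.02). Pkd2l1 and gata3, of the same list, had too few UMIs, with 3 and 0 in the floor plate against 7 and 9 in progenitors.

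**Figure D2:**
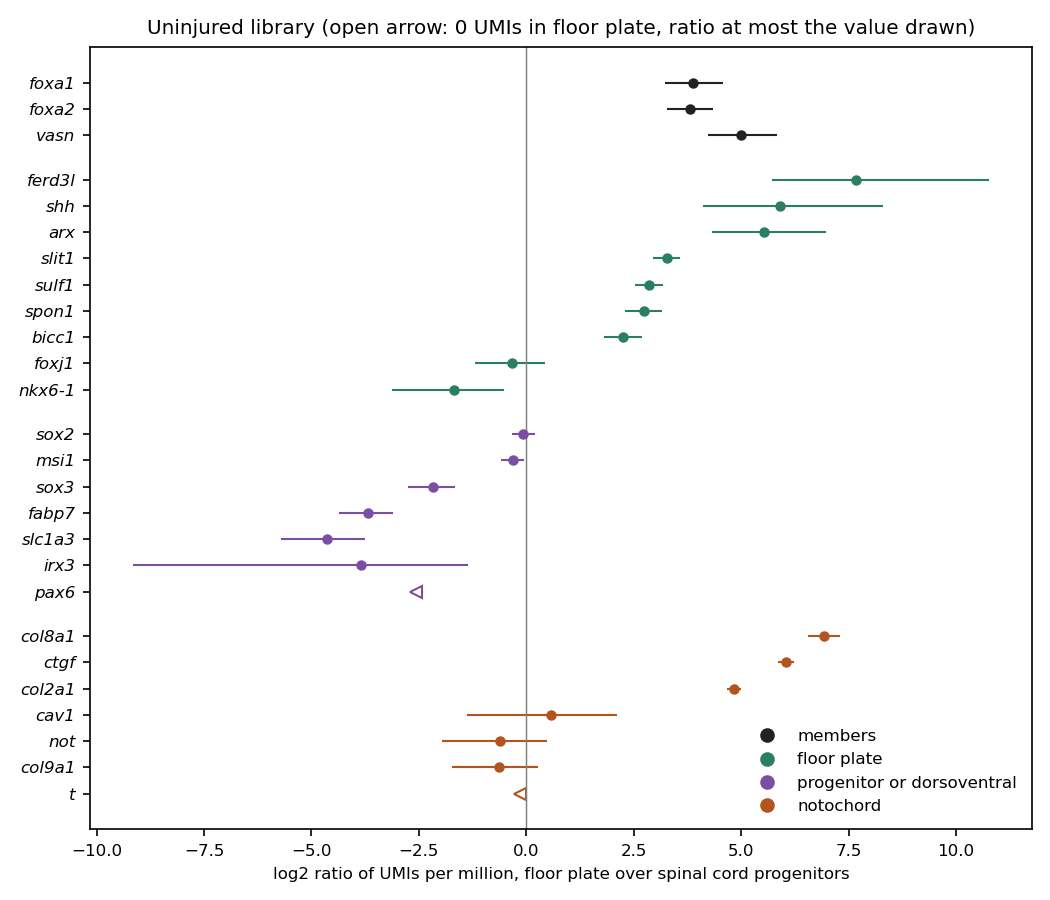
Log2 ratio of CPM in 23 floor plate cells over 273 spinal cord progenitors of the uninjured library, for foxa1, foxa2, vasn and named genes of 3 gene groups (points, ratios; bars, 95% counting intervals; open arrows, 0 UMIs in the floor plate, drawn at the ratio with 3 UMIs set in place of 0). Vasn lies at 5.002, foxa1 and foxa2 at 3.89 and 3.81, while pax6, slc1a3 and fabp7 lie to the left of 0. The groups are selections from the lists. Domain genes not drawn include nkx6-2 (0.57) and nkx2-2 (0.28), which were not called, and dbx1 and msx1, which were lower.

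Notochord genes gave a mixed picture in the floor plate. Of 8 with enough UMIs, 4 were higher than in progenitors and none lower: shh, col2a1 (4.83), col8a1 and ctgf. The defining notochord factor t (brachyury) had 0 UMIs in the floor plate against 35 in progenitors, a log2 ratio of at most −0.15. It was not called, and neither were cav1 (0.59) and col9a1 (−0.63), a collagen of the notochord sheath. Per UMI of col9a1, of which it had 10, the floor plate held 114.5 UMIs of col2a1, against 1.58 in the notochord, 2.60 in progenitors and 1.70 in barcodes that hold free RNA. For col8a1 per UMI of cav1, of which the floor plate had 4, the values were 194, 2.897, 2.39 and 2.04.

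Markers of other tail cells were mixed in the floor plate. Of 3 goblet cell genes 1 was lower (itln1, −1.41), the only measured small secretory cell gene, ddc, had 1 UMI, and 1 erythroid gene (0.12) gave no call. The 4 muscle genes were not called (median −0.27), and actc1, a muscle actin that stood at 980 CPM in the floor plate and 1226 in progenitors, was counted in both. The single ionocyte gene was atp6v0d2, which was higher. No endoderm or endothelial gene reached 20 UMIs.

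The notochord is the other midline tissue that uses these genes, and its 291 uninjured cells were compared next. Foxa1 was found in most notochord cells: 2127 UMIs, 357 CPM (342 to 373), in 91.8% of cells (88.0 to 94.6%), with a median of 6 and a highest count of 28 per cell. Foxa2 had 296 UMIs, 49.7 CPM (44.2 to 55.7), in 52.9% of cells. Vasn had 116 UMIs, 19.5 CPM (16.1 to 23.4), in 27.5% of cells. These cells were deep, with a median of 19115 UMIs. Thinned to 2600 UMIs, the shares were 56.7%, 11.7% and 5.15%.

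Against the notochord the 3 genes parted. Foxa2 was 6.27-fold higher in the floor plate, a log2 ratio of 2.65 (2.25 to 3.03), and vasn 13.1-fold higher, a log2 ratio of 3.71 (3.23 to 4.18). Foxa1 stood at −0.76 (−1.20 to −0.35), or 1.69-fold below the notochord, which is under the 2-fold limit. Of 7639 genes compared, 16% were called higher in the floor plate and 5.24% lower, so a call in this contrast was common. Shh differed little between the 2 tissues, at 74.7 and 88.0 CPM, with a log2 ratio of −0.24 (−1.03 to 0.46).

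Genes outside the members showed how far the midline tissues were apart. Ferd3l (9.99), slit1 (7.13), sox2 (6.82) and arx (6.49) were higher in the floor plate, as were 6 of 7 floor plate genes. Of 8 notochord genes 5 were lower, among them t, with a log2 ratio of at most −3.74, col9a1 (−8.20) and cav1 (−6.11), while ctgf was higher (1.55) and col8a1 level (−0.05). Of 7 TGF-beta genes, tgfb2, a ligand, was lower in the floor plate, at 39.5 against 468 CPM, as was ltbp3 (−2.46), a binding protein of latent TGF-beta. Vasn and tgfb2 thus had opposite differences between the tissues.

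Outside the floor plate, the members were sparse in the neural lineage. In the 273 uninjured progenitors, foxa1 had 34 UMIs in 28 cells (10.3%, 6.92 to 14.5%), foxa2 53 UMIs in 35 cells (12.8%, 9.09 to 17.4%) and vasn 19 UMIs in 17 cells (6.23%, 3.67 to 9.78%). Skeletal muscle, which should lack foxa2, gave a background at a median depth of 9553 UMIs against 7739 in progenitors. There, foxa1 was found in 4.85% of 412 cells, foxa2 in 0.728% and vasn in 1.70%. At 2600 UMIs the shares in progenitors and muscle were 3.69% and 1.26% for foxa1 and 5.35% and 0.194% for foxa2. For vasn they were 2.11% and 0.504%. Each progenitor share was the larger, but muscle was the only background used, and an excess over background was not tested. By CPM, progenitors ranked 8 for foxa1, 4 for foxa2 and 10 for vasn among the 20 uninjured clusters with at least 20 cells.

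Free RNA, read from barcodes with at most 100 UMIs, bore most on foxa1. It made up 86.4 CPM of that RNA, against 8.98 for foxa2 and 10.1 for vasn. Progenitors could hold at most 5.29% free RNA by erythroid genes and 8.19% by goblet cell genes, and the lower of these limits was used. With that share taken off, progenitor levels were 9.66, 21.7 and 7.41 CPM for foxa1, foxa2 and vasn. In the floor plate, where the lower limit was 2.30%, from goblet cell genes, the 3 levels came to 209, 312 and 255 CPM.

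Of the domain genes, only pax6 and irx3 are given for progenitors with and without foxa2, and the intervals lay apart for irx3. At nearly the same median depth, 7748 and 7721 UMIs, pax6 was found in 8 of the 35 cells with foxa2 (22.9%, 10.4 to 40.1%) and in 97 of the 238 without it (40.8%, 34.5 to 47.3%). Irx3, which marks more dorsal cells, was in 4 (11.4%, 3.20 to 26.7%) and 93 (39.1%, 32.8 to 45.6%). The irx3 intervals lay apart and those of pax6 overlapped. Gata2 was in 5 cells against 1, and pkd2l1, the channel gene of neurons that contact the cerebrospinal fluid, in 4 against 0, both with intervals apart. Both belong to a list of 5 genes of such neurons. The rest of that list and the other domain genes, nkx6-1, nkx6-2 and nkx2-2 among them, are not given for this split. These shares therefore do not name a type of cell. Foxa1 was found in 11 of the 35 (31.4%, 16.9 to 49.3%) and in 17 of the 238 (7.14%, 4.22 to 11.2%).

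Floor plate markers were rare in those progenitors. Of the 35 cells with foxa2, 1 had shh, 1 had arx and 2 had ferd3l. Slit1 (45.7% and 37.8%), spon1 (28.6% and 26.1%) and bicc1 (31.4% and 31.9%) were found in similar shares of cells with and without foxa2, with intervals that overlapped.

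Among neurons, 2 young or ventral clusters carried most of the foxa2. In 155 uninjured differentiating neurons, foxa2 had 27 UMIs in 15 cells (9.68%) and a level of 15.9 CPM, foxa1 12 UMIs (7.07 CPM) and vasn 9 (5.30 CPM). In 49 cells named dopaminergic neurons, foxa1 had 12 UMIs (26.2 CPM), foxa2 11 (24.0 CPM, 18.4% of cells) and vasn 3. All 9 foxa2-positive cells of that cluster had pkd2l1 and 8 had gata2, as did 38 and 35 of the 40 cells without foxa2. The cluster as a whole thus carried markers of neurons that contact the cerebrospinal fluid.

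In differentiating neurons, the shares of cells with spon1 and bicc1, both of the floor plate list and picked here after their values were seen, lay apart between cells with and without foxa2. Spon1 was in 73.3% of the 15 cells with foxa2 (44.9 to 92.2%) and 28.6% of the 140 without (21.3 to 36.8%), and bicc1 in 60.0% (32.3 to 83.7%) and 10.7% (6.12 to 17.1%). The cells with foxa2 were deeper, with a median of 15191 against 8229 UMIs, and the part of depth in these shares was not tested. By CPM, which takes account of depth, spon1 stood at 108 and 38.2, and bicc1 at 56.2 and 18.4, both without intervals. Neither shh nor ferd3l, of the same list, had a UMI in any of the 15. The other genes of the list are not given for this split, so the list as a whole was not compared.

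The mature neuron clusters were close to empty. In uninjured interneurons, motor neurons, leptin-positive motor neurons and vulnerable motor neurons, foxa1 had 0, 2, 0 and 3 UMIs, foxa2 1, 0, 0 and 2, and vasn 2, 1, 4 and 3. For foxa2, 0 of 52 motor neurons allows a share of cells with a UMI of up to 5.77%, and 0 of 27 leptin-positive cells up to 11.1%.

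Beyond the midline, the 3 genes differed in where they were found. Foxa1 was highest in the skin, in both small secretory cell clusters. Small Secretory Cell 2 (41 cells) stood at 554 CPM (483 to 632) with 92.7% of cells positive, and Small Secretory Cell 1 (313 cells) at 512 CPM (481 to 545) with 86.3%. These intervals overlapped each other and lay above that of the notochord, which in turn lay above that of the floor plate. Next came the cluster named Bipotent Progenitor at 38.3 CPM (23.7 to 58.5), apart from the floor plate, and from there down neighbours in the order overlapped. Small secretory cells had almost no foxa2 or vasn: 8 and 4 UMIs in Small Secretory Cell 1, 0 and 2 in Small Secretory Cell 2.

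Foxa2 followed the midline. The floor plate led at 312 CPM, the notochord was next at 49.7 with no overlap, and the dopaminergic neurons, at 24.0 (12.0 to 43.0), lay below the notochord. The spinal cord progenitors and differentiating neurons came after these with overlapping intervals. It had no UMI in uninjured myotome, ROC (regeneration-organizing cells, an epidermal population named in Xenopus laevis) or Small Secretory Cell 2.

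Vasn was found in epidermis and mesoderm as well. Below the floor plate, and apart from it, came ROC at 89.7 CPM (68.8 to 115) with 38.6% of cells positive. Then followed myotome (50.4), the unnamed cluster Other 1 (45.2), mesenchyme (34.5), satellite cells and differentiating myotome (24.5) and notochord (19.5), each overlapping its neighbour. In contrast to these, 143 dermomyotome cells had no vasn UMI, which allows up to 2.10% of cells with one.

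By sheer number of UMIs the floor plate was a minor source. It held 1.37% of the 3514 foxa1 UMIs in uninjured cells, 14.5% of 489 for foxa2 and 14.3% of 407 for vasn. The notochord held 60.5% of the foxa1 UMIs and likewise 60.5% of the foxa2 UMIs, and Small Secretory Cell 1 held 27.8% of those of foxa1. For vasn, the notochord held 28.5%, ROC 15.2% and myotome 8.60%.

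**Figure D3:**
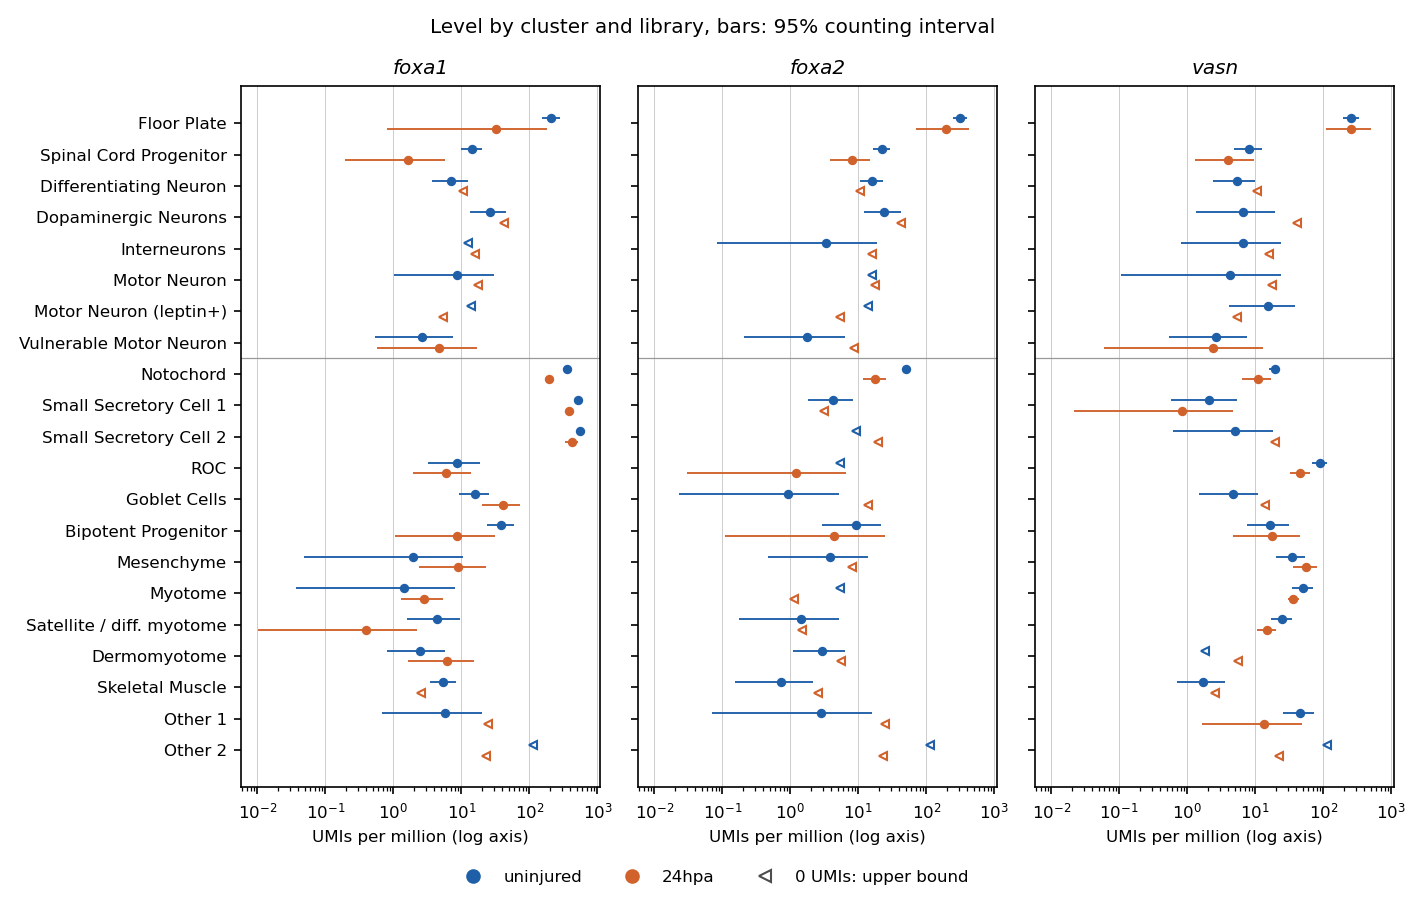
CPM of foxa1, foxa2 and vasn (log axis) in 8 neural clusters (above the line) and 13 other clusters, in the uninjured (blue) and 24hpa (orange) libraries; bars are 95% counting intervals and open arrows mark the upper bound where a cluster had 0 UMIs. The 24hpa floor plate is 1 cell. Foxa1 peaks in small secretory cells and notochord, foxa2 in the floor plate and notochord, and vasn in the floor plate and ROC.

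Most floor plate cells held more than 1 of the genes at once. Of 23 uninjured floor plate cells, 14 had UMIs of all 3 genes, 6 of 2 and 3 of 1, so that 20 (87.0%, 66.4 to 97.2%) held at least 2. In the notochord 41 cells had all 3 and 186 of 291 (63.9%, 58.1 to 69.4%) at least 2. Of 273 progenitors, 13 (4.76%, 2.56 to 8.01%) had at least 2 and 2 cells had all 3. Thinned to 2600 UMIs, the expected shares with at least 2 were 45.6% in the floor plate, 10.3% in the notochord, 0.985% in progenitors and 0.007% in skeletal muscle.

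Nearly all cells with all 3 genes lay in the midline. There were 59 in the uninjured library, 41 notochord cells, 14 floor plate cells, 2 progenitors, 1 differentiating neuron and 1 dopaminergic neuron. Of the 13 progenitors with at least 2 of the genes, 1 had shh, 1 arx and 1 ferd3l. At 24hpa 7 cells had all 3, of which 6 were notochord cells and 1 was the floor plate cell, and none of 71 progenitors had more than 1.

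**Figure D4:**
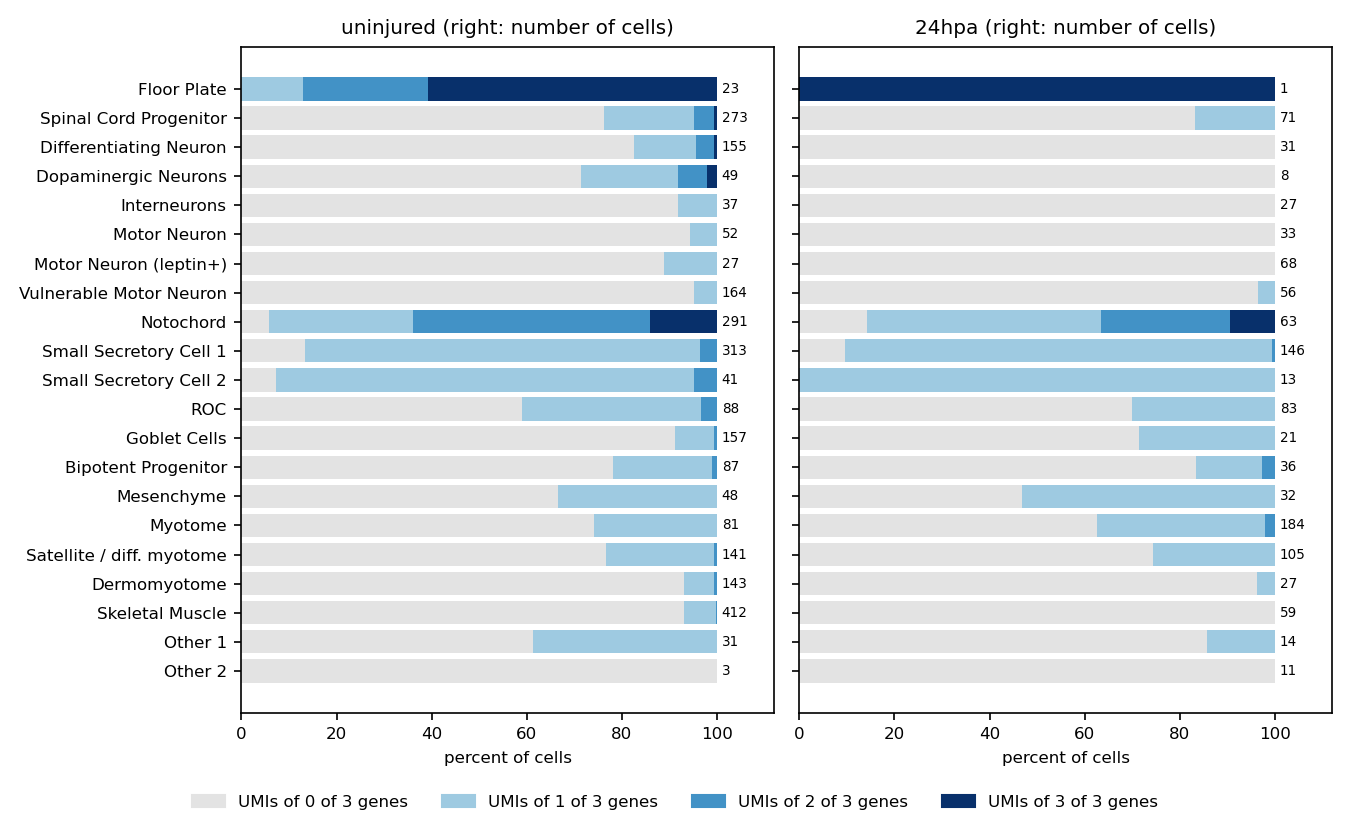
Percent of cells with UMIs of 0, 1, 2 or 3 of the genes foxa1, foxa2 and vasn, by cluster, in the uninjured (left) and 24hpa (right) libraries; numbers at the right of the bars are cells. In the uninjured floor plate 14 of 23 cells hold all 3 genes, in the notochord 41 of 291, and in progenitors 2 of 273.

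The second comparison set 24hpa against uninjured cells within each cluster. Over all neural cells, all 3 genes were lower at 24hpa. Foxa1 went from 16.5 to 1.53 CPM, a log2 ratio of −3.43 (−5.08 to −2.17). Foxa2 went from 24.5 to 4.89 CPM, −2.33 (−3.17 to −1.58), or −3.30 as a mean of CPM per cell. Vasn went from 14.7 to 4.28 CPM, −1.78 (−2.70 to −0.97). Of 9501 genes, 6.72% were called lower and 7.3% higher. The single 24hpa floor plate cell held 8 of the 14 vasn UMIs at 24hpa, and without the cell with the most vasn UMIs in each library the ratio was −2.84.

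Floor plate cells made up 23 of 780 uninjured and 1 of 295 24hpa neural cells. With floor plate cells left out of both libraries, a step chosen after the data were seen, the log2 ratios were −2.97 (−4.89 to −1.54) for foxa1, −2.23 (−3.33 to −1.29) for foxa2 and −1.77 (−3.29 to −0.52) for vasn. All 3 were called, against 6.48% of genes called lower. The mix of the other cells differed too, with 273 progenitors and 155 differentiating neurons in the uninjured library against 71 and 31, and the part of that mix in these ratios was not tested.

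Within the progenitor cluster, 2 of the 3 genes were called. Foxa1 fell from 34 UMIs in 273 cells to 2 in 71, or from 14.2 to 1.61 CPM, a log2 ratio of −3.14 (−6.24 to −1.18). Foxa2 fell from 22.2 to 8.07 CPM, −1.46 (−2.60 to −0.47), with 10 UMIs in 5 cells at 24hpa. Vasn stood at 7.95 and 4.04 CPM, −0.98 (−2.75 to 0.49). In this cluster 6.55% of 7573 genes were called lower and 4.33% higher. The 24hpa progenitors were deeper, with a median of 14090 against 7739 UMIs.

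Markers of other tissues fell in the same progenitors. Goblet cell genes summed to 110 CPM in uninjured and 0.807 in 24hpa progenitors, with all 3 measured genes lower and a median log2 ratio of −4.61. Of 7 notochord genes 5 were lower, from a sum of 453 to 219 CPM, among them t, with 35 UMIs and 0. The genes t and not stood at 14.6 and 46.8 CPM in uninjured progenitors and at 23.6 and 33.7 CPM in uninjured free RNA. The lower free RNA limit of those progenitors was 5.29%, and at 24hpa the gene not stood at 19.4 CPM. Where these UMIs came from was not tested. Of 4 muscle genes 3 were lower, the 1 erythroid gene measured was lower (−2.32) and ddc, of the small secretory cell list, had 53 UMIs and 1. Over all neural cells ddc had 349 UMIs and 78, so most of these lay in neural cells outside the progenitors. Free RNA itself held 86.4 CPM of foxa1 in the uninjured and 41.2 in the 24hpa library, 8.98 and 1.87 of foxa2, and 10.1 and 18.7 of vasn. In free RNA, goblet cell genes summed to 1337 CPM in the uninjured and 165 in the 24hpa library. Erythroid genes there summed to 443 and 33.7 CPM, and muscle genes to 24076 and 29667. In 24hpa progenitors the limit on free RNA was 0% by erythroid genes and 0.489% by goblet cell genes. The free RNA of that library held only 18 UMIs of erythroid and 88 of goblet cell genes. These limits carry no interval, so 0% is not a firm bound. The lower limit was used again, so only the uninjured values were reduced. With free RNA taken off in this way, the progenitor ratios were −2.58 for foxa1, −1.43 for foxa2 and −0.88 for vasn. Its further part in these falls was not tested.

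Of the related neural genes in progenitors, beside the 6.55% of all genes called lower, some lists held lower calls. Of 7 floor plate genes only slit1 was lower (−1.31), and of 6 hedgehog genes only hhip (−2.58), an inhibitor of Shh. Of 5 TGF-beta genes, tgfb2 (1.32) and ltbp3 (1.21) were higher. Of 7 dorsoventral genes dbx1 (−1.19) and msx1 (−1.06) were lower, none of 6 progenitor genes was called, and of 4 neuron genes 3 were lower, among them elavl4 (−2.25). Of 3 genes of neurons that contact the cerebrospinal fluid, pkd1l2 was lower (−2.05).

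Over all neural cells, 6.72% of all genes were called lower. There the floor plate list held more lower calls, 3 of 10 genes: ferd3l (42 and 1 UMIs), arx (54 and 4) and slit1 (−1.27). The 23 uninjured floor plate cells held 39 of the 42 ferd3l, 31 of the 54 arx and 171 of the 572 slit1 UMIs. With floor plate cells left out of both libraries, 2 of 8 genes of the list were lower, with a median log2 ratio of −0.33. Of all genes, 6.48% were called lower in that comparison. Again over all neural cells, hhip (−1.33) and gas1 (−1.14) were lower among 7 hedgehog genes. There, 4 of 5 genes of neurons that contact the cerebrospinal fluid were lower, with pkd2l1 at −1.89. Of 8 notochord genes 7 were lower, as were all 3 goblet cell genes and all 4 erythroid genes with enough UMIs. The neuron genes stmn2 (1.30) and stmn4 (2.79) were higher, as were 7.3% of all genes.

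In the neurons, the members had few UMIs at 24hpa. None of 31 differentiating neurons had a UMI of any of the 3, which allows a share with a UMI of up to 9.68%, and for foxa2 the log2 ratio was at most −0.90. None of 8 dopaminergic neurons had one, which allows up to 37.5%. Vulnerable motor neurons held 2 foxa1 UMIs and 1 of vasn in 56 cells.

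In the notochord all 3 ratios lay below 0 as well. Foxa2 was called lower, from 49.7 to 17.8 CPM, a log2 ratio of −1.48 (−2.10 to −0.92), and its share of positive cells went from 52.9% (47.0 to 58.8%) to 31.7% (20.6 to 44.7%) at median depths of 19115 and 18882 UMIs. Foxa1 stood at 357 and 194 CPM, −0.88 (−1.06 to −0.71), under the 2-fold limit as scaled to totals and at −1.01 with TMM scaling. Vasn stood at 19.5 and 10.8 CPM, −0.85 (−1.68 to −0.11). Shh was called lower, from 88.0 to 43.8 CPM (−1.01). In the notochord 8.94% of 7877 genes were called lower.

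Other genes of the 24hpa notochord moved in both directions. Of 8 notochord genes, col8a1 (−1.43), ctgf (−2.04) and shh were lower, and t, at 176 and 136 CPM (−0.37), was not called. The heparan sulfatase gene sulf1 was higher (1.68), and gas1 lower (−1.86). All 3 goblet cell genes were lower here too, from a sum of 147 to 3.81 CPM. The share of notochord cells with at least 2 of the genes went from 63.9% to 36.5% (24.7 to 49.6%), or, thinned to 2600 UMIs, from 10.3% to 2.91%.

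In the skin and in mesoderm other than the notochord, 1 ratio was called. Foxa1 in small secretory cells stood at 512 and 386 CPM in cluster 1, −0.41 (−0.57 to −0.25), and at 554 and 418 CPM in cluster 2, −0.41 (−0.80 to −0.03), neither past 2-fold. Goblet cells stood the other way, with 15.8 and 40.9 CPM, 1.37 (0.13 to 2.55) from 17 and 11 UMIs, and ddc in goblet cells stood at 21.3 and 130 CPM. Bipotent Progenitor foxa1 was at 38.3 and 8.75 CPM, −2.13 (−5.27 to −0.10). In skeletal muscle foxa1 had 22 UMIs and 0, a log2 ratio of at most −1.37, which was called, but there 23% of genes were called lower, and with TMM scaling the bound was −0.89, short of 2-fold.

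Over all cells vasn stood at 15.4 and 15.8 CPM, a log2 ratio of 0.03 (−0.20 to 0.26), against −1.28 (−1.39 to −1.17) for foxa1 and −2.70 (−3.17 to −2.26) for foxa2. These totals also carry the change in the mix of cells between the libraries. Within clusters, vasn stood at −0.97 (−1.60 to −0.37) in ROC, −0.73 (−1.44 to −0.01) in satellite cells and differentiating myotome, −0.48 (−1.03 to 0.11) in myotome and 0.68 (−0.25 to 1.64) in mesenchyme, none of them called. At 24hpa, among clusters with at least 20 cells, mesenchyme (55.4 CPM), ROC (45.6) and myotome (36.2) headed the order for vasn with overlapping intervals, and myotome held 45.7% of the 254 vasn UMIs.

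For the forkhead genes the 24hpa order was shorter. Foxa1 ran from Small Secretory Cell 1 (386 CPM) to notochord (194) to goblet cells (40.9), each apart from the next, among clusters with at least 20 cells. Foxa2 had 46 UMIs in all 1090 cells, of which 28 lay in the notochord, 10 in progenitors and 6 in the floor plate cell. Foxa4 had 22 UMIs in the uninjured library, 17 of them in 5 notochord cells, and 0 at 24hpa.

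**Figure D5:**
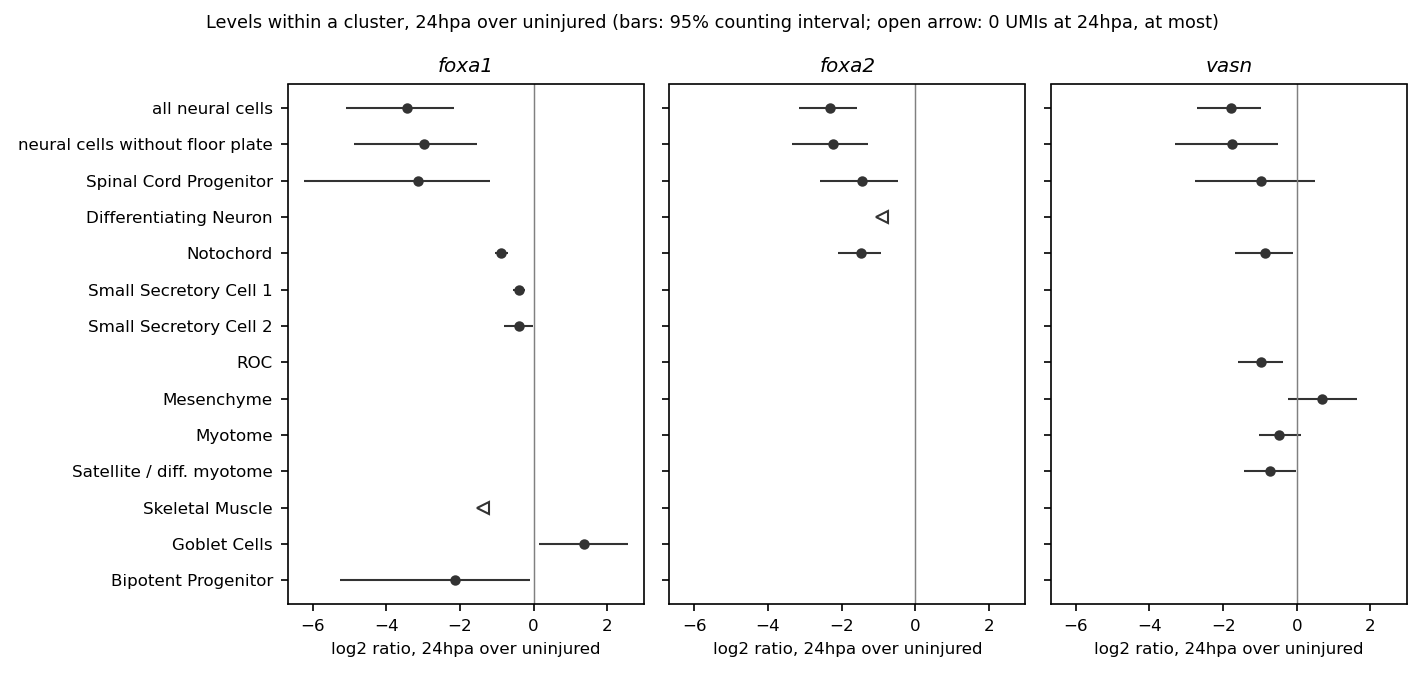
Log2 ratio of CPM at 24hpa over uninjured for foxa1, foxa2 and vasn in groups of cells with at least 20 UMIs over both libraries (points, ratios; bars, 95% counting intervals; open arrows, 0 UMIs at 24hpa, drawn at the ratio with 3 UMIs set in place of 0). In neural cells all 3 genes lie left of 0 at −3.43, −2.33 and −1.78, while foxa1 in goblet cells (1.37) and vasn in mesenchyme (0.68) lie to the right.

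The pattern of each gene over the 21 clusters was last compared with that of 10315 genes with at least 50 UMIs, both libraries summed, by Pearson's correlation of log2(CPM + 10). The clusters share libraries and were built from these genes, so the correlations are descriptions. Most like foxa1 were LOC100493805 (0.910), b3gnt7 (0.858), Xetrov90027036m.g (0.844), dap (0.834) and b3gnt2 (0.829). Most like foxa2 were a2ml1 (0.916), stmnd1 (0.916), lrrc72 (0.911), LOC100485272-like (0.904) and wdr38 (0.897), and a2ml1 was highest in the floor plate (514 CPM) and notochord (183 CPM). Stmnd1, lrrc72 and wdr38 were highest in the floor plate too. They stood higher in progenitors (44.4, 7.16 and 8.26 CPM) than in the notochord (32.7, 1.33 and 2.12 CPM). Spearman correlation kept none of the 5 genes given for foxa2, and 2 each of those given for foxa1 and vasn. Most like vasn were bc014685 (0.907), adamts12 (0.884), bmp1 (0.883), lama1-like (0.860) and nid2 (0.859), and bmp1, a matrix protease, was highest in the floor plate (151 CPM) and ROC (127 CPM). Lama1-like was highest in Other 1 (213 CPM) and nid2 in the notochord (498 CPM). The members were less alike among themselves, at 0.467 for foxa1 and foxa2, 0.584 for foxa2 and vasn, and 0.164 for foxa1 and vasn.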

How the data were processed

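The deposited matrices hold UMI counts, neither normalised nor restricted to cells, from 10x Genomics 3′ libraries that the authors ran through Cell Ranger. The submitters' processing notes also name GRCz11, a zebrafish build, and the build behind these counts is not given in the sources used here. The authors' Seurat tables, built on the integrated libraries, supplied the cells, clusters and phases, and 28 of their columns were not used. Of the UMIs, 54.2% (uninjured, of 48622597) and 49.1% (24hpa, of 32798976) lay in cells. Clopper-Pearson (shares), exact Poisson (CPM) and exact conditional (ratio) 95% intervals cover counting error only, and not the spread between animals or libraries. At 0 the limit on a share of cells with a UMI is 3 of the total, and in a ratio 3 UMIs stand in place of 0, and no ratio is given where both groups had 3 or fewer. Thinned shares are expectations at 2600 UMIs, below the shallowest cell (2666). Scrublet (scanpy 1.11.5) marked 10 (0.382%) and 2 (0.183%) cells as doublets, none in the floor plate, which is too few to show that it worked. 1 barcode was a cell in both libraries. TMM factors from edgeR 4.0.16 served as an alternative scaling. The calculations were tested on simulated data.

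The members and the 16 gene lists (92 of 118 names matched) were chosen with earlier results of these data known. Genes named are the members, list genes, the 10 highest ratios of floor plate over progenitors with at least 20 floor plate UMIs, and the 5 genes most like each member. Alternatives were a minimum of 2 UMIs, cells with at least 1000 genes, no shared barcodes, no doublets, mean CPM per cell, free RNA subtraction, leaving out the top cell, TMM scaling, and Spearman correlation or the uninjured library alone for likeness. 1 gene of the hedgehog list is not reported here by name.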

Additional observations from a re-analysis of the deposited data

Results flagged for a closer look

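All 3 genes were also counted outside the authors' cells, in barcodes with at least 500 UMIs that are not in their tables. The uninjured library had 5748 such barcodes, with 380 UMIs of foxa1 in 281 of them, 36 of foxa2 in 35 and 67 of vasn in 61. The 24hpa library had 1958, with 220 UMIs of foxa1 in 126, 9 of foxa2 in 8 and 47 of vasn in 43. In the uninjured library these barcodes stood at 72.7, 6.89 and 12.8 CPM for foxa1, foxa2 and vasn, with intervals that overlapped those of free RNA (86.4, 8.98 and 10.1). At 24hpa they stood at 102, 4.16 and 21.7 CPM against 41.2, 1.87 and 18.7 in free RNA, and only the foxa1 intervals (88.7 to 116 and 25.8 to 62.4) lay apart.

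Foxa1 had opposite signs in 2 clusters. Its log2 ratio of 24hpa over uninjured was 1.37 (0.13 to 2.55) in goblet cells, from 17 and 11 UMIs, and was not called. In spinal cord progenitors it was −3.14 (−6.24 to −1.18), from 34 and 2 UMIs, and was called lower. Each group was 1 library, and the difference between the clusters was not tested.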

How the results depend on the processing

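No result changed direction under the alternatives, and for the main results 95 values stayed within the counting error of the reported value. The 13 others were as follows. Thinned to 2600 UMIs, the shares of positive floor plate cells were 40.0% for foxa1, 57.4% for foxa2 and 50.7% for vasn, and with at least 2 UMIs asked for, 65.2% for foxa2 and 43.5% for vasn. As a mean of CPM per cell, the ratio of 24hpa over uninjured was −0.61 for foxa1 in the notochord and −3.30 for foxa2 in neural cells. Without the cell with the most vasn UMIs in each library, vasn in neural cells stood at −2.84. Of the 5 genes most like each member, Spearman correlation kept 2 for foxa1, 0 for foxa2 and 2 for vasn, and the uninjured library alone kept 2 for foxa1 and 2 for foxa2. Of the other results 235 values stayed and 55 moved, 2 of them the foxa1 ratio in Small Secretory Cell 1, to −0.14 with free RNA subtracted (its free RNA share reached the cap of 100%) and −0.18 with TMM scaling. TMM scaling moved ratios by −0.12 in the notochord, 0.23 in Small Secretory Cell 1 and 0.48 in skeletal muscle. Free RNA subtraction left no ratio for foxa2 in differentiating neurons or foxa1 in skeletal muscle. The ratios without floor plate cells were added after the data were seen. No paired analysis was possible because each group had 1 library, and for the same reason no replicate could be left out. The 1 floor plate cell at 24hpa limits what can be said of that cluster.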
